A study of Mus musculus with 10 samples.

Results

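H3K27me3 was examined at 39 genes that repair DNA crosslinks and double-strand breaks or signal their presence, picked by symbol for their known roles, out of 22380 protein-coding genes that GENCODE annotates in mm9. Every symbol was found. The mark was mapped by ChIP-seq in 5 mouse B-cell lymphoma lines of the C57BL/6J strain, all carrying the Eμ-Myc transgene, in which an immunoglobulin heavy chain enhancer restricts Myc expression to the B lineage, and all Cdkn2a-/-. Escalating mafosfamide, a form of cyclophosphamide that is active in culture, gave 4 resistant lines from the Parental line. R100 was harvested at 100 nM on day 10, R500 at 500 nM on day 18, R1000 at 1000 nM on day 23 and R4000 at 4000 nM on day 37. All 5 lines were without mafosfamide when chromatin was prepared. They descend from 1 parental culture, with 1 line at each dose, so that dose, time in culture and the history of the line cannot be told apart.

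For each line there was 1 list of peaks, that is, of stretches where immunoprecipitated DNA exceeded input, with their positions in mm9 and no height, score or read count. The lists held 6820 to 25180 distinct peaks with a median width of 100 bp, and the depth behind them is unknown. Replicate spread cannot be had from single lists, so differences between lines carry no test. Each count of repair genes is instead set beside the share of all protein-coding genes in the same list. The 95% Wilson intervals cover counting of genes only, and genes are not replicates. The B-cell label could not be checked by expression. Among genes of the B-cell surface, the promoters of Cd79a and Ms4a1 had no peak in any line, and that of Cd79b had none in the Parental line but 1000 bp under peaks in R100. Cdkn2a, the deleted gene, had no peak near its transcription start site (TSS) in any line. Of all protein-coding genes, 65.1% had no promoter peak in any line, so an absent peak does not bear on the cell type or the deletion.

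Mafosfamide is a bifunctional alkylating agent, which adds alkyl groups to DNA and joins its strands by crosslinks. In a dividing cell a crosslink stalls the replication fork. The Fanconi anaemia proteins recognise the stalled fork and ubiquitinate the Fancd2 and Fanci pair, nucleases such as Ercc1 with Ercc4 unhook the crosslink, and homologous recombination rebuilds the broken strand, while end joining seals other breaks. H3K27me3 is written by polycomb repressive complex 2 and, in wide domains over promoters, accompanies silent genes, so the position and width of its peaks at these genes are of interest in cells selected with an alkylator. Expression of the genes was not analysed here.

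The sequences on which the description turns are shown first, as read from the mm9 reference on the strand of the repair gene, 5′ to 3′. The first 3 are the R500 promoter peaks that overlapped an R100 peak. Capitals mark the bases that R100 covered too and lower case those of R500 alone, and the R100 peaks at Fancd2 and Prkdc run on beyond the stretch shown. They lie 376 to 475 bp upstream of the TSS of Fancd2 (chr6:113481201-113481300, + strand), 759 to 858 bp upstream of that of Prkdc (chr16:15637101-15637200, + strand) and 206 to 355 bp downstream of that of Xrcc5 (chr1:72354201-72354350, + strand).
Fancd2: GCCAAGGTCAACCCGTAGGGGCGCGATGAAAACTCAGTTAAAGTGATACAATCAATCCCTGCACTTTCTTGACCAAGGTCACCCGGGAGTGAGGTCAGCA
Prkdc: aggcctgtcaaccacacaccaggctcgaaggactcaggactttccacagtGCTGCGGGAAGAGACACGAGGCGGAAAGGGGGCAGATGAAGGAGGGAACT
Xrcc5: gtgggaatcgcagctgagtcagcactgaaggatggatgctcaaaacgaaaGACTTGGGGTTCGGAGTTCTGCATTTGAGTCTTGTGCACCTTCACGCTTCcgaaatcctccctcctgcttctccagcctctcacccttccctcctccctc
Their GC content was 52%, 59% and 54.7%, and they held 4, 4 and 5 CpG dinucleotides. The next sequence is 1490 to 1589 bp upstream of the TSS of Msh6 (chr17:88372801-88372900, + strand), where an R100 peak in lower case, which opens with a run of alternating c and a, adjoined an R500 peak in capitals. It is shown because the peaks touch without sharing a base.
Msh6: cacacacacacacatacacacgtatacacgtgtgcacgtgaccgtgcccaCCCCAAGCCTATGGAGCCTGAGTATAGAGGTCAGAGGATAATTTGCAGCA
The R1000 peak in an intron of Brca1 (chr11:101412851-101412900, - strand) is one of only 2 promoter peaks of that line, and the Ercc5 sequence (chr1:44204001-44204100, + strand) is the only one of the Parental line.
Brca1: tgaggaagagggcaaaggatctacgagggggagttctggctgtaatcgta
Ercc5: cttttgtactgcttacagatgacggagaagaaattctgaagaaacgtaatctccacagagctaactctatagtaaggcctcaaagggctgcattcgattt
The last lies upstream of Ercc1 (chr7:19927851-19927950, + strand) and is the longest run there that was covered in all 5 lines.
Ercc1: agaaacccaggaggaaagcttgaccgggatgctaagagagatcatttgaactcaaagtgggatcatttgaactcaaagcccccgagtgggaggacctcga

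Within 2 kb on each side of the TSS, 1 of the 39 genes had an H3K27me3 peak in the Parental line (2.56%, 95% CI 0.454 to 13.2%), against 8.3% of all genes that code for protein. In R100 there were 14 (35.9%, 95% CI 22.7 to 51.6%, against 28.2%), and in R500 there were 8 (20.5%, 95% CI 10.8 to 35.5%, against 21.4%). R1000 and R4000 each had 2 (5.13%, 95% CI 1.42 to 16.9%), against 12.6% and 11.1%. In each line the interval included the share of all genes, so the number of repair genes with any covered base was not distinguishable from that background. No repair gene had a promoter peak in all 5 lines or in at least 4, against 5.02% and 8.32% of all genes. A count of 0 of 39 allows a share of up to 7.69% when set at 3 counts, and its Wilson interval reaches 8.97%. A shortfall from 5.02% was thus not detectable by either limit. The share of 8.32% lies between the 2 limits, so a shortfall from it was not detectable by the Wilson interval. In all, 17 genes had a promoter peak in at least 1 line (43.6%, 95% CI 29.3 to 59.0%, against 34.9%) and 22 had none (56.4%, 95% CI 41.0 to 70.7%, against 65.1%). In exactly 1 line there were 7 (17.9%, against 14.4%).

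**Figure D1:**
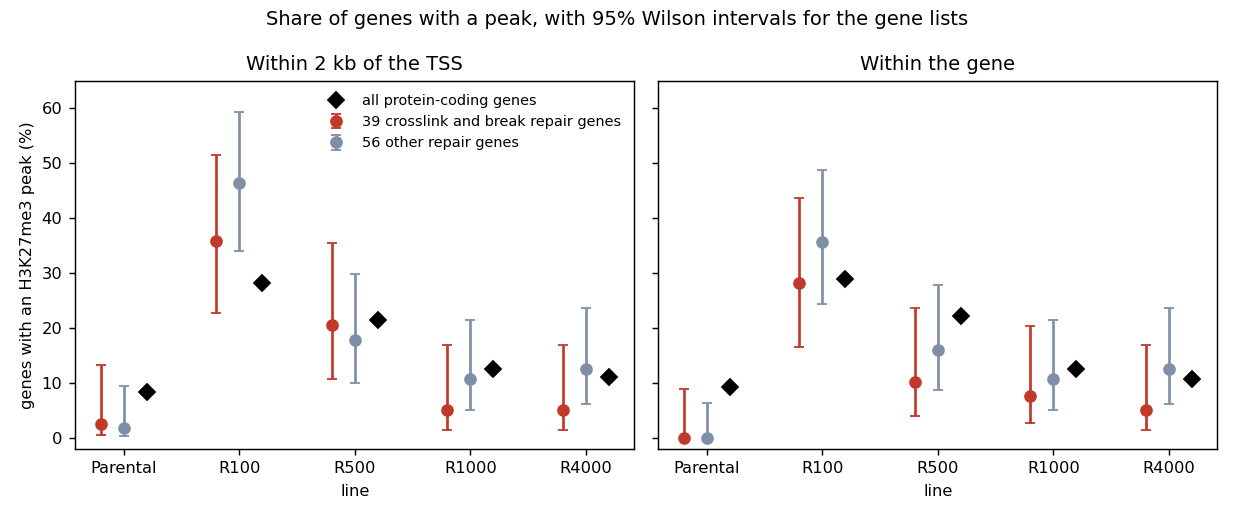
Percentage of genes with an H3K27me3 peak in each line, within 2 kb of the TSS (left) and within the gene (right), for the 39 repair genes, 56 other repair genes and all protein-coding genes; bars are 95% Wilson intervals. The share for the 39 genes runs from 2.56% in the Parental line through 35.9% in R100 to 5.13% in R4000 in the left panel, and their intervals include the black diamonds there.

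Peaks that the Parental line lacked appeared mostly in R100. Of the 39 genes, 15 lacked a promoter peak in the Parental line and had one in R100 or R500 (38.5%, 95% CI 24.9 to 54.1%), against 24.5% of all genes. Whatever the other resistant lines held, there were 14 for R100 (35.9%, 95% CI 22.7 to 51.6%, against 20.4%) and 7 for R500 (17.9%, 95% CI 8.98 to 32.7%, against 13.8%). The first 2 intervals begin above the background share. A gene with a Parental peak cannot gain one. Such genes made up 2.56% of the 39 and 8.3% of all genes, and the shares were not adjusted for this. Without that condition the same 14 genes of R100 stood against 28.2% of all genes, which their interval included. Peaks in R100 or R500 and in no other line were found at 12 genes (30.8%, 95% CI 18.6 to 46.4%, against 16.9%), while 4 gained one in R1000 or R4000 (10.3%, 95% CI 4.06 to 23.6%, against 9.68%). With the TSS of any annotated transcript used, the 15 became 16 (41.0%, against 25.8%), by the addition of Xrcc6. The size of the excess changed with limits on width. Without peaks of 50 bp, the gene count for R100 or R500 was 11 (28.2%, 95% CI 16.5 to 43.8%, against 19.6%), and with only the 6820 widest peaks of each list it was 4 (10.3%, 95% CI 4.06 to 23.6%, against 7.77%). With at least 150 bp required it was 5 (12.8%, 95% CI 5.60 to 26.7%, against 14.3%), below the background. All 3 of these intervals include the share of all genes. The promoters of the repair genes were also richer in CpG, a feature that moved with peaks across the genome. Within 1 kb of the TSS, they had a median of 87 CpG dinucleotides against 60 for all protein-coding genes, and the medians were 94 for all genes with a peak in any line and 34 for those without. Within the 39 genes the medians were 87 with a promoter peak and 77 without. The part of CpG content in the excess was not tested.

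The peaks at these promoters were narrow. In R100 the promoter windows of the 39 genes held 16 peaks of 50 to 350 bp, with a median width of 100 bp, against 150 bp for the promoter peaks of all genes. The medians were 75 against 150 bp in R500 and 50 against 100 bp in R1000. In the Parental line and in R4000 both were 100 bp. The Parental, R1000 and R4000 medians of the repair genes rest on 1 or 2 peaks each. The mean covered length per promoter was 48.7 bp in R100 for the repair genes and 124 bp for all genes. In R500 these means were 16.7 and 106 bp. The Parental line had 2.56 against 32.1 bp, R1000 had 2.56 against 42.0 bp and R4000 had 5.13 against 30.2 bp. The repair genes were thus the less covered ones in all 5 lists. None of the 39 genes was covered over 500 bp or more in any line, while 7.56% of all genes were in R100, 6.81% in R500, 2.85% in R1000, 2.31% in the Parental line and 1.92% in R4000. A count of 0 of 39 allows a share of up to 7.69%, which is above each of these. The largest covered length was 400 bp, at Brip1 in R100. Over all 5 lines there were 29 promoter peaks, 14 of them 50 bp wide, the narrowest peak in the lists, and 3 at least 200 bp wide. Of the promoter peaks of all genes, 21.2 to 30.9% were 50 bp wide, depending on the line. In R100 the shares were 43.8% for the repair genes and 22.8% for all genes, a difference that was not tested.

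**Figure D2:**
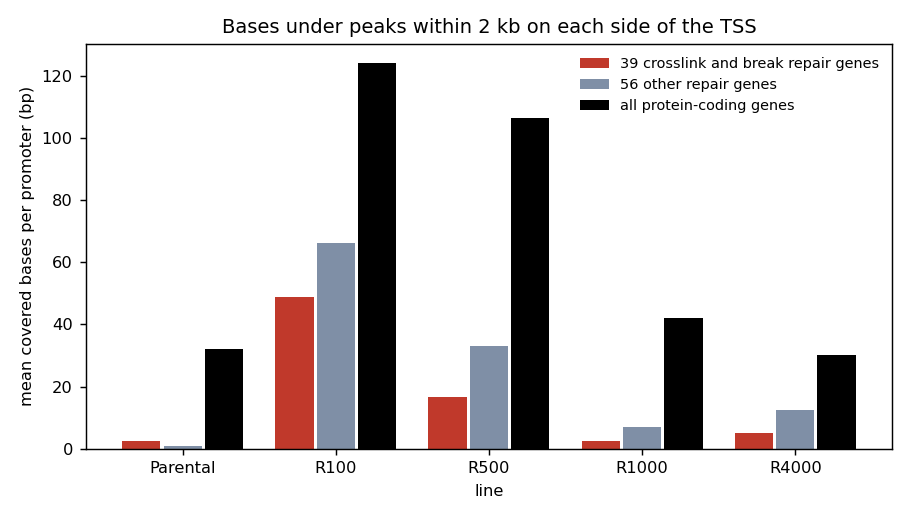
Mean number of bases under H3K27me3 peaks within 2 kb on each side of the TSS, per gene, for the 39 repair genes, 56 other repair genes and all protein-coding genes in each line. The red bars of the 39 genes stay below the black bars in every line, with 48.7 against 124 bp in R100.

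None of the 29 peaks lay over a TSS. The nearest was 35 bp away, and the median distance of the near edge was 356 bp. Upstream lay 15 peaks and downstream 14, and 27 were wholly within 1 kb of the TSS. These positions were not counted over all genes. For all genes with a promoter peak, the TSS base itself was covered in only 4.66 to 10.2%, depending on the line, with 9.77% in R100 and 10.2% in R500. With at most 14 repair genes covered in a line, a shortfall from these low shares was not tested. Of the 29 peaks, 6 overlapped a peak of another line (20.7%), against 64.8% of the promoter peaks of all genes. The 29 include peaks at the 7 genes with one in a single line. Widths were not matched in this comparison. None of the 29 was 500 bp wide or more, against 6.46 to 14.8% of the promoter peaks of all genes, depending on the line. R100 and R500 both had promoter peaks at 6 of the repair genes (15.4%, against 17.1% of all genes), which is 42.9% of those of R100 and 75% of those of R500, against 60.8% and 80% over all genes. At 3 of these 6 the peaks overlapped. Over all protein-coding genes with promoter peaks in both lines, they overlapped in 75.7%.

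**Figure D3:**
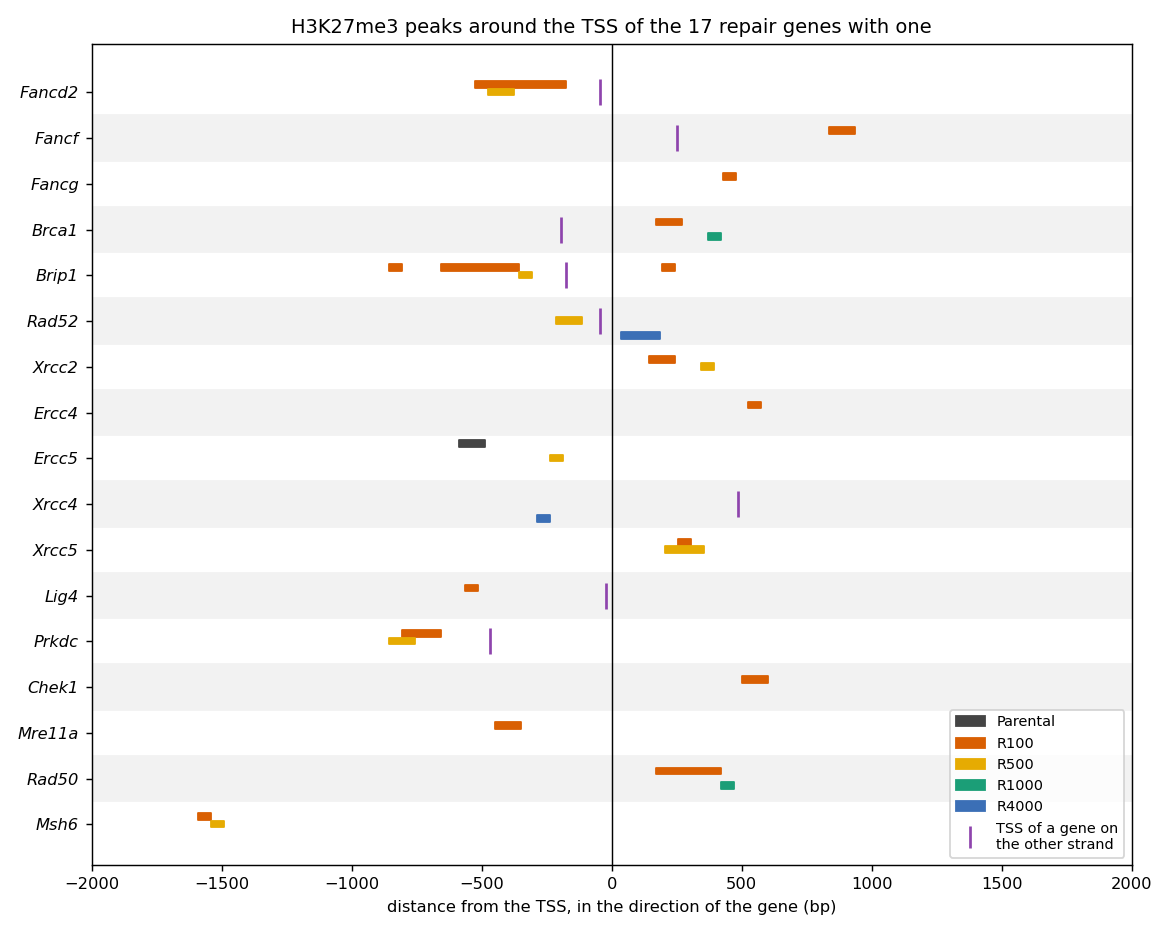
Position of each H3K27me3 peak around the TSS (0 on the x axis, bp in the direction of the gene) at the 17 repair genes with a promoter peak, coloured by line; purple ticks mark the TSS of a gene on the other strand within 1 kb. The peaks are 50 to 350 bp wide, flank the TSS without covering it, and most belong to R100 or R500.

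In the account by role that follows, a line not named for a gene had no peak in its promoter or gene. Of all protein-coding genes, 34.9% had a promoter peak in at least 1 line. A role holds at most 9 genes, and its count was not tested against that share. Among the Fanconi anaemia genes, 3 of 9 had a promoter peak, all of them in R100. Fancd2 encodes the protein whose monoubiquitination is the central step of the pathway. The Fancd2 promoter was covered over 350 bp in R100 and 100 bp in R500, and had no peak in the Parental, R1000 and R4000 lines. Both peaks lay upstream of its TSS, inside Tmem111, a gene that starts 44 bp away on the other strand. Fancf, which encodes an adaptor of the core complex, was covered over 100 bp in R100 only, 837 bp downstream of the TSS and wholly in its exon. Fancg, another core subunit, had 50 bp in R100 only, in an exon 428 bp downstream. These 3 genes were bare in the Parental, R1000 and R4000 lines. Fancc, also of the core complex, had no promoter peak but had intronic peaks of 50 bp in R100 and 100 bp in R500, 43736 and 3386 bp from its annotated 5′ end. Fanca, Fance, Fanci, Fancl and Fancm had no peak in promoter or gene, among them Fanci, the partner of Fancd2, and Fancl, the ubiquitin ligase of the core complex. Fancm, the translocase that binds the stalled fork, had a 50-bp peak in R500 2.09 kb upstream, just outside the window.

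Of the 9 genes of homologous recombination, 4 had a promoter peak. Brca1, which with Bard1 forms a ubiquitin ligase that promotes recombination, was covered over 100 bp in R100 and 50 bp in R1000, and not in the other 3 lines. The R100 peak lay 169 to 268 bp and the R1000 peak 369 to 418 bp downstream of the TSS, so that neither position was shared. Brip1, the helicase partner of Brca1, was covered over 400 bp in R100, in 3 peaks, and over 50 bp in R500. The widest R100 peak, of 300 bp, and the R500 peak adjoined each other upstream of the TSS within 4632419I22Rik, a transcript on the other strand. Rad52, which anneals single strands, had 100 bp in R500 and 150 bp in R4000. Its R500 peak was 116 to 215 bp upstream and its R4000 peak 35 to 184 bp downstream, where 103 bp of it were exonic. Xrcc2, which acts in strand exchange, had 100 bp in R100 and 50 bp in R500. Its peaks began 143 and 343 bp downstream of the TSS and did not overlap. Brca2, a central mediator of recombination, and Palb2, which joins Brca2 to Brca1, had no peak in promoter or gene in any line, nor had Rad51c, Xrcc3 and Rad54l.

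Of the 5 genes of end joining, 4 had a promoter peak, where the share of all genes was 34.9%. Xrcc6 had peaks far inside the gene only. The share of all genes with a peak in the promoter or gene in at least 1 line was 40.7%. Prkdc encodes the DNA-dependent protein kinase and was covered over 150 bp in R100 and 100 bp in R500, with 50 bp in common. These peaks lay within Mcm4, a subunit of the replicative helicase whose TSS is 466 bp upstream of that of Prkdc on the other strand. Xrcc5, which encodes the Ku80 subunit of the Ku dimer that binds broken ends, had 50 bp in R100 and 150 bp in R500, both in an intron. Xrcc6, which encodes Ku70, had no peak within 2 kb of its annotated 5′ end. Several TSSs are annotated further inside the gene, and peaks were found near those, where R100 had 50 bp, R500 had 100 bp and R1000 had 100 bp. The R1000 bases, in 2 peaks, were exonic. All these peaks also lie in an intron of Pppde2, so that they cannot be assigned to 1 gene. Lig4, the ligase of end joining, had 50 bp in R100 only, within Abhd13, and Xrcc4, its scaffold, had 50 bp in R4000 only, within Tmem167. Xrcc4 was the only gene of the 39 whose promoter peak was found in R4000 alone.

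Of the 7 genes that sense breaks or carry the checkpoint signal, 3 had a promoter peak and all 3 had it in R100. Rad50 and Mre11a are subunits of the complex that holds and trims broken ends. Rad50 was covered over 250 bp in R100, of which 222 bp were exonic, and over 50 bp in R1000. The R1000 peak began at the base after the R100 peak, 421 bp downstream of the TSS. Mre11a had 100 bp in R100 only, 348 bp upstream. Chek1, the kinase that Atr activates at stalled forks, had 100 bp in R100 only, 500 bp downstream. Nbn, the third subunit of the complex, had no peak in promoter or gene. Nor had the kinases Atm, Atr and Chek2, and the nearest peak to the TSS of Atm in any line was 130 kb away.

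Excision repair and single-strand break repair gave 2 of 7 genes with a promoter peak. Ercc5, the nuclease that cuts on the 3′ side of a lesion, had the only Parental promoter peak, 100 bp wide and 489 to 588 bp upstream. R500 had 50 bp there, 189 to 238 bp upstream, which did not overlap it, and R4000 had 50 bp in an intron 14562 bp downstream. R100 and R1000 had none. Ercc4, the nuclease that unhooks crosslinks together with Ercc1, had 50 bp in R100 only, in an intron. Ercc2, a helicase of the TFIIH complex, Xrcc1, the scaffold of single-strand break repair, and the ligases Lig1 and Lig3 had no peak in promoter or gene. Mgmt, which removes alkyl groups from guanine directly, was the gene farthest from any peak, at 409 kb from the nearest one over the 5 lines. Msh6, a mismatch sensor, had 50 bp in R100 and 50 bp in R500.

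Ercc1 was bare within 2 kb of the TSS and within the gene, but it was next to the one region in all 5 lines that lay within 5 kb upstream of a repair gene. The region is on chromosome 7 from 19927251 to 19928050, 2077 bp upstream of the TSS, and overlaps no annotated protein-coding gene. Of its 800 bp, 700 were covered in the Parental line, and 500, 750, 600 and 250 in the resistant lines from the lowest dose to the highest. It was thus widest in R500 and narrowest in R4000. Bases in peaks within the 5 kb upstream were found at 2 genes in the Parental line (Ercc1 and Ercc5, against 7.02% of all genes), 8 in R100 (against 16.5%), 8 in R500 (against 13.6%), 2 in R1000 (against 7.62%) and 3 in R4000 (against 6.16%). Ercc1 was the 1 gene with them in every line (2.56%, against 3.01%), and 9 genes gained them in R100 or R500 (23.1%, 95% CI 12.6 to 38.3%, against 14%). Regions of all lines were looked for further out too. Only 3 of the 39 genes had a region of all 5 lines within 25 kb of the TSS (7.69%, 95% CI 2.65 to 20.3%, where the share of all genes was 7.75%), and for the other 2 another gene was nearer. Downstream of Fance, on chromosome 17 from 28465601 to 28466900, a region of 1300 bp lay 185 bp from the TSS of Rpl10a, a ribosomal protein gene, and had 350 bp under peaks in the Parental line and 1250, 1200, 750 and 600 bp in the resistant lines, from the lowest dose to the highest. Upstream of Xrcc5, on chromosome 1 from 72332151 to 72332400, a region of 250 bp overlapped Tmem169 and was covered over 50 bp in each line but R1000, where it was covered over 250 bp.

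Counted over the whole gene, from its start to its end, none of the 39 genes had a peak in the Parental line, which allows a share of up to 7.69%, or 8.97% by the Wilson interval (against 9.3% of all genes). R100 had peaks in 11 genes (28.2%, 95% CI 16.5 to 43.8%, against 29%) and R500 in 4 (10.3%, 95% CI 4.06 to 23.6%, against 22.2%). R1000 had peaks in 3 (7.69%, against 12.5%) and R4000 in 2 (5.13%, against 10.8%). Over the 5 lines, 13 genes had one (33.3%, against 36%). The covered bases within genes added up to 950 bp for R100, to 400 bp for R500 and to 200 bp for R1000 and R4000 each. In promoter and gene together, 20 of the 39 genes had no peak in any line (51.3%, 95% CI 36.2 to 66.1%), where the share of all genes was 59.3%.

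Many of the 39 genes start close to a gene on the other strand. Such a gene started within 1 kb of the TSS for 16 of them (41.0%), against 14.9% of all protein-coding genes. Of these 16 genes 8 had a promoter peak (50%, against 56.2% of all genes with such a neighbour), and of the other 23 genes 9 had one (39.1%, against 31.2%). Where a peak lay upstream of a repair gene, it was mostly inside the neighbour, for 10 of the 15 upstream peaks, so that these bases cannot be assigned to one gene of the pair. The neighbours with such peaks were Tmem111, 4632419I22Rik, 4930540M05Rik, Tmem167, Abhd13 and Mcm4. Other such pairs were bare near the TSS of the repair gene, among them that of Atm with Npat, 307 bp apart, that of Palb2 with Dctn5, 95 bp apart, and that of Chek2 with Hscb, 240 bp apart. Brca1 and Nbr1 start 194 bp apart, and the peaks there were on the Brca1 side. Gas2 starts 252 bp downstream of the TSS of Fancf, and the Fancf peak lay beyond it.

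The nearest peak to the TSS was closest in R100, the line with the most peaks, and farthest in R4000, the line with the fewest. The median distance over the 39 genes was 16.3 kb for R100 and 40.0 kb for R500, against 32.2 and 51.5 kb for all genes. It was 92.9 kb for the Parental line and 74.5 kb for R1000 (against 135 and 115 kb), and 139 kb for R4000 (against 153 kb). In every line the median of the repair genes was thus the smaller one. The nearest peak was over 100 kb away for 8 of the 39 genes in R100 (20.5%, against 33.4% of all genes) and 12 in R500 (30.8%, against 38.7%). For the Parental line these were 19 (48.7%, against 56.2%), for R1000 17 (43.6%, against 52.6%) and for R4000 21 (53.8%, against 58.0%). After Mgmt, the genes farthest from a peak in any line were Lig1 at 240 kb, Nbn at 205 kb, Brca2 at 152 kb and Atm at 130 kb.

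**Figure D4:**
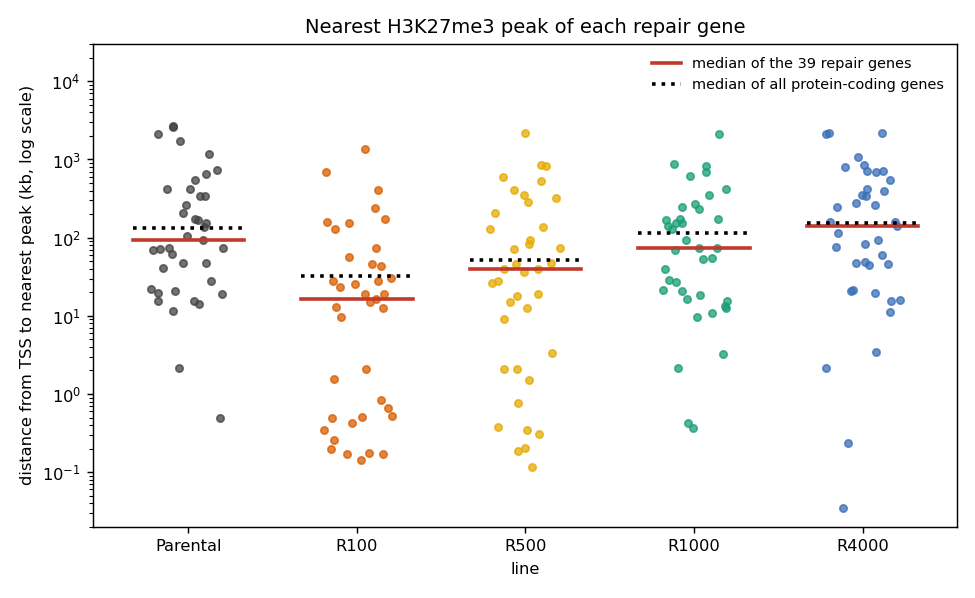
Distance in kb (log scale) from the TSS of each of the 39 repair genes to the nearest H3K27me3 peak, by line, one point per gene, with the median of the 39 genes (red) and of all protein-coding genes (dotted). The red median is lowest in R100, at 16.3 kb, and highest in R4000, at 139 kb.

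Another 56 repair genes, among them Slx4 and the mismatch, translesion and base excision genes, were counted in the same way. R100 had promoter peaks at 26 of them (46.4%, 95% CI 34.0 to 59.3%) and R500 at 10 (17.9%). The Parental line had 1 (1.79%), R1000 had 6 (10.7%) and R4000 had 7 (12.5%). The R100 interval lay above the 28.2% of all genes. A peak in R100 or R500 but not in the Parental line was found at 27 genes (48.2%, 95% CI 35.7 to 61.0%, against 24.5%). Without peaks of 50 bp it was 18 (32.1%, 95% CI 21.4 to 45.2%, against 19.6%). Both intervals begin above the background share. With 150 bp required, 12 of the 56 genes reached that length in R100 or R500 but not in the Parental line (21.4%, 95% CI 12.7 to 33.8%, against 14.3%). With only the widest peaks of each list it was 7 (12.5%, 95% CI 6.19 to 23.6%, against 7.77%). These last intervals include the background share. Like the 39 genes, none of the 56 was covered over 500 bp or more. The genes named next were chosen after their values were seen. Mad2l2, a translesion synthesis subunit, was the one with a Parental peak and was covered over 50 bp there, 200 bp in R100 and 400 bp in R500. Dclre1b, a nuclease, and Apex1, the base excision endonuclease, were the 2 genes with peaks in all 4 resistant lines. From the lowest dose to the highest, Dclre1b had 50, 100, 100 and 50 bp and Apex1 had 200, 100, 50 and 100 bp. H2afx, the histone variant phosphorylated at breaks, had 400 bp in both R100 and R500 and 150 bp in R4000.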

How the data were processed

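H3K27me3 ChIP-seq of 5 lines was used. The 5 RRBS samples of the series were not analysed here. The authors read 50 bp per fragment on an Illumina HiSeq 2000 and tested windows along the genome for excess over input with Poisson statistics. The submitters' processing notes name Bowtie and mm9. The values the authors deposited are peak positions in base pairs, with no count or score. The study's rule for an enriched promoter was at least 3 bins of 50 bp past a p-value limit within 5 kb upstream of the TSS. The main counts here use another window, of 2 kb on each side. Whether that limit made the deposited lists, and whether a list pools replicates, is not given in the sources used here. The paper reports high correlation between profiles of biological replicates, which could not be examined from single lists.

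Lines were taken from the sample labels. R100 and R500 peaks, each listed 2 times, were each taken as 1 peak. Peak ends fell within the NCBIM37 (mm9) length of all 20 chromosomes compared. The TSS is the 5′ end of the gene in GENCODE, and at least 1 covered base counts as a peak. Python 3.11.15 (numpy 2.4.6, pandas 2.3.3) served to count covered bases. The counting was tested on simulated data by visiting single bases, and 0 of 1000 windows differed. Wilson intervals came from scipy 1.17.1 and figures from matplotlib 3.10.9. The wider list of 56 genes matched the annotation by symbol, or by alias for 4 of them. Some items are not reported here. By rule, all 39 genes are accounted for, and other genes are named where they start within 1 kb of one with a promoter peak or, in the wider list, have promoter peaks in the Parental, R1000 and R4000 lines (0 genes). Npat, Dctn5, Hscb, Pppde2, Rpl10a and Tmem169 were named after their values were seen. The genes, lists and windows were chosen with earlier results of these data known. Regions of all 5 lines are unions of overlapping or touching peaks. Alternatives were windows of 1 kb on each side or 5 kb upstream, at least 150 bp covered, lists of equal number, any annotated TSS and, added after the data were seen, no peaks of 50 bp.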

Additional observations from a re-analysis of the deposited data

Results flagged for a closer look

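Bases covered in the 5 kb upstream of the 39 TSSs moved in opposite directions from the Parental line in the lower-dose and the higher-dose lines. The Parental line had 800 bp. R100 and R500 had more, 1750 and 1300 bp, and R1000 and R4000 had less, 700 and 350 bp. This difference was not tested, since each line has 1 list. Over all protein-coding genes the Parental sum was 460310 bp, those of R100 and R500 were 1361956 and 1264267 bp, and those of R1000 and R4000 were 494504 and 332779 bp, so that these also were higher in R100 and R500 and lower in R4000, but higher in R1000. The region upstream of Ercc1 supplied most of the Parental bases, and without Ercc1 the sums were 100, 1200, 500, 50 and 100 bp for the Parental line and the resistant lines by dose, so that R4000 equalled the Parental line.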

How the results depend on the processing

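The window, the minimum length and the length of the lists changed the counts of genes more than 1.5 times in 28 of 63 recomputed values, and 35 stayed within that factor. In a window of 5 kb upstream, the genes with a promoter peak numbered 2 in the Parental line and 8 in R100, with 9 that gained one in R100 or R500 and 1 (Ercc1) in all 5 lines. With at least 150 bp covered, they numbered 0, 4, 1, 0 and 1 in the Parental, R100, R500, R1000 and R4000 lines and 5 gained one in R100 or R500, and the genes with a peak inside numbered 1, 1, 0 and 1 in R100, R500, R1000 and R4000. With only the 6820 widest peaks of each list, promoter counts were 3, 1 and 0 in R100, R500 and R1000, 4 genes gained one in R100 or R500, and counts within the gene were 1, 1 and 0 in R100, R500 and R1000. Without peaks of 50 bp, a setting chosen after seeing the data, promoter counts were 9, 4, 0 and 1 in R100, R500, R1000 and R4000, and counts within the gene 5, 0 and 1 in R100, R1000 and R4000. These settings also leave fewer genes covered genome-wide. At 150 bp the shares of all genes were 5.25, 17.4, 13.3, 6.92 and 5.50% in the order of lines above, and the Wilson interval of the R500 count (2.56%, up to 13.2%) ended below its share. In lists of equal number they were 11.9, 10.4 and 9.87% in R100, R500 and R1000, and without peaks of 50 bp the R1000 share was 9.34%. In both of these settings the interval of the R1000 count of 0, up to 8.97%, ended below its share. A window of 1 kb on each side and the TSS of any transcript kept every count within 1.5 times. No paired analysis was possible because each line has 1 list and no test was made. Unknown depth limits every comparison of lines.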

Other observations

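Promoter motifs were searched from 250 bases before the TSS to 50 from it on, on both strands, as a description. CACGTG, the E-box that Myc binds, was found in 4 of the 39 repair gene promoters (10.3%, against 7.78% of all protein-coding promoters of the same length), namely those of Xrcc5, Lig1, Lig3 and Rad50. CAGGTG was in 5 (12.8%, against 19.9%) and CAGCTG in 5 (12.8%, against 15.2%), both of them E-boxes of E proteins such as E2a. CCAAT was in 20 (51.3%, against 37.9%). None of the 17 promoters with an H3K27me3 peak held CAGGTG, and all 5 that did were among the 22 without one. Over all protein-coding promoters the shares with CAGGTG were 19.1% with a peak and 20.4% without. CAGCTG was split the other way, in 3 of the 17 (17.6%) and 2 of the 22 (9.09%). These counts are small and the splits were not tested.

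CpG content at the annotated 5′ end varied widely among the 39 genes, from 8 CpG dinucleotides within 1 kb of it at Fancl to 159 at Fancf. Xrcc6 had 15 at the 5′ end used here, and its peaks lay near TSSs annotated further inside the gene.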
